A study of Arabidopsis thaliana with 6 samples.

Results

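Auxin response and organ growth genes were represented here by 5 genes, ARL, IAGLU, AT2G18010, IAA20 and IAA15. They were measured by 7 of the 8297 probe sets on the array. The members were selected on measured values of these arrays: ARL, IAGLU, AT2G18010 and IAA20 for their higher signal in the codes ending in H than in those ending in L, and IAA15 for its higher signal in CVM than in CVL. Their levels across the endings L, M and H are therefore given as a description, with no test. Only the difference between CV and CL was tested for them, since it played no part in the choice of the first 4; IAA15 was chosen within CV, so its test is not independent.

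Auxin promotes the breakdown of the Aux/IAA repressor proteins, which frees the auxin response factors to switch on early genes, among them the Aux/IAA genes themselves, the SAUR genes and the GH3 genes. SAUR proteins promote cell expansion by raising proton pumping at the plasma membrane. Glucosyltransferases such as IAGLU and the GH3 enzymes lower the pool of free auxin by attaching glucose or amino acids to it. ARL is a relative of the auxin-induced gene ARGOS and promotes the growth of leaves and cotyledons through cell expansion.

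The study concerns acclimation of Arabidopsis thaliana to light intensity. Total RNA of unshaded rosette leaves was hybridised to 6 arrays, a single array per code and no replicates, the codes being CLL, CLM and CLH (start CL) and CVL, CVM and CVH (start CV). All plants were of the ecotype Ws-2 without genetic modification, at growth stage 3.90, the stage of a fully grown rosette; the number of pooled plants was left blank. The codes combine 2 starts (CL and CV, 3 arrays each) with 3 endings (L, M and H, 2 arrays each), and no label says what the letters mean, so no light level was assigned. The growth record of CLL and CVL names 16 hours of dark at 15 °C, and that of the other arrays gives no light or temperature.

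Of the leaf markers, RCA (Rubisco activase), LHCB4.1 (a light-harvesting protein) and PSAE-1 (a photosystem I subunit) were on the array under a name, with signals of the brightest probe set between 7547.8 and 12240.5 on every array. No gene of the flower, meristem, root and vasculature marker lists was measured here under a name. The 2% trimmed mean signal was 100.2 on each array, and the median was between 20.0 and 26.1. The ratio of 3-prime to 5-prime signal of GAPDH, a measure of RNA integrity, was 6.22 in CLH and 5.50 in CVH and between 2.81 and 3.76 on the other arrays. That of ubiquitin was 3.18 in CLH and 2.31 in CVH, just above and just below the range of 2.43 to 3.12 on the other arrays. Because leaf RNA was measured in bulk, fewer cells of a type and less RNA per cell cannot be told apart.

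ARL (AT2G44080), the organ growth gene, had its highest signals on both H arrays. Its signal in CL was 55.8 for L, 59.4 for M and 145.2 for H, and in CV 43.0 for L, 27.5 for M and 150.6 for H. The H arrays lay above the other 4 without overlap and differed from each other by a ratio of 1.04. The H signal was 2.60 times that of L in CL and 3.50 times in CV. From M to H it was 2.44 times as high in CL and 5.48 times as high in CV, because CVM was the lowest array of this gene. In the additive fit, H was above L by 1.52 (SE 0.34, 2 arrays against 2) and above M by 1.77 (SE 0.34) on the scale of log2(signal + 3.9), where 3.9 is the 20th percentile of all signals. On that scale CLM was 0.08 above CLL and CVM was 0.58 below CVL, each a difference of 1 array from 1 other. The fit gives this gene a per-array spread of 0.34, and a difference of 2 arrays varies more than that. The fitted change of M from L was -0.25 (SE 0.34), and it was 0.18 without CVM.

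IAGLU (AT4G15550), the glucosyltransferase, was the brightest of the 5 genes and had the closest signals in the 2 starts. Its signal in CL was 182.0 for L, 180.8 for M and 408.0 for H, and in CV 187.9 for L, 196.9 for M and 426.3 for H. The 4 arrays ending in L or M lay within a narrow band, and both H arrays were above it without overlap. The ratio of H to L was 2.24 in CL and 2.27 in CV, and CV and CL differed by ratios of 1.03, 1.09 and 1.04 at L, M and H. The fitted change of H from L was 1.16 (SE 0.28) and that of M from L 0.03 (SE 0.28), on the log2 scale. The probe set carries the suffix _s, which on arrays of this kind marks probes shared with other sequences, so signal from a related gene is included if such a gene is expressed.

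Both H arrays were above all 4 others in 8.82% of the 5773 probe sets tested, as they were in ARL and IAGLU. A gap of at least 1 on the log2 scale between the lower H array and the highest other array was found in 8 probe sets (0.139%), and ARL (1.24) and IAGLU (1.04) were among them. Of the other 6, AT4G26095 (1.27) and AT1G54070 (1.21) have a name and 4 are unnamed here. These shares describe the contrast on which ARL and IAGLU were chosen. The H arrays were also those with the highest GAPDH ratio, and its part in the higher signal at H was not tested. IAGLU's gap was 0.81 with arrays centred on their medians, where 5 probe sets reached 1, and 0.99 with an offset of 16, where 2 did. That of ARL was between 1.096 and 1.343 under every scaling and offset tried.

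**Figure D1:**
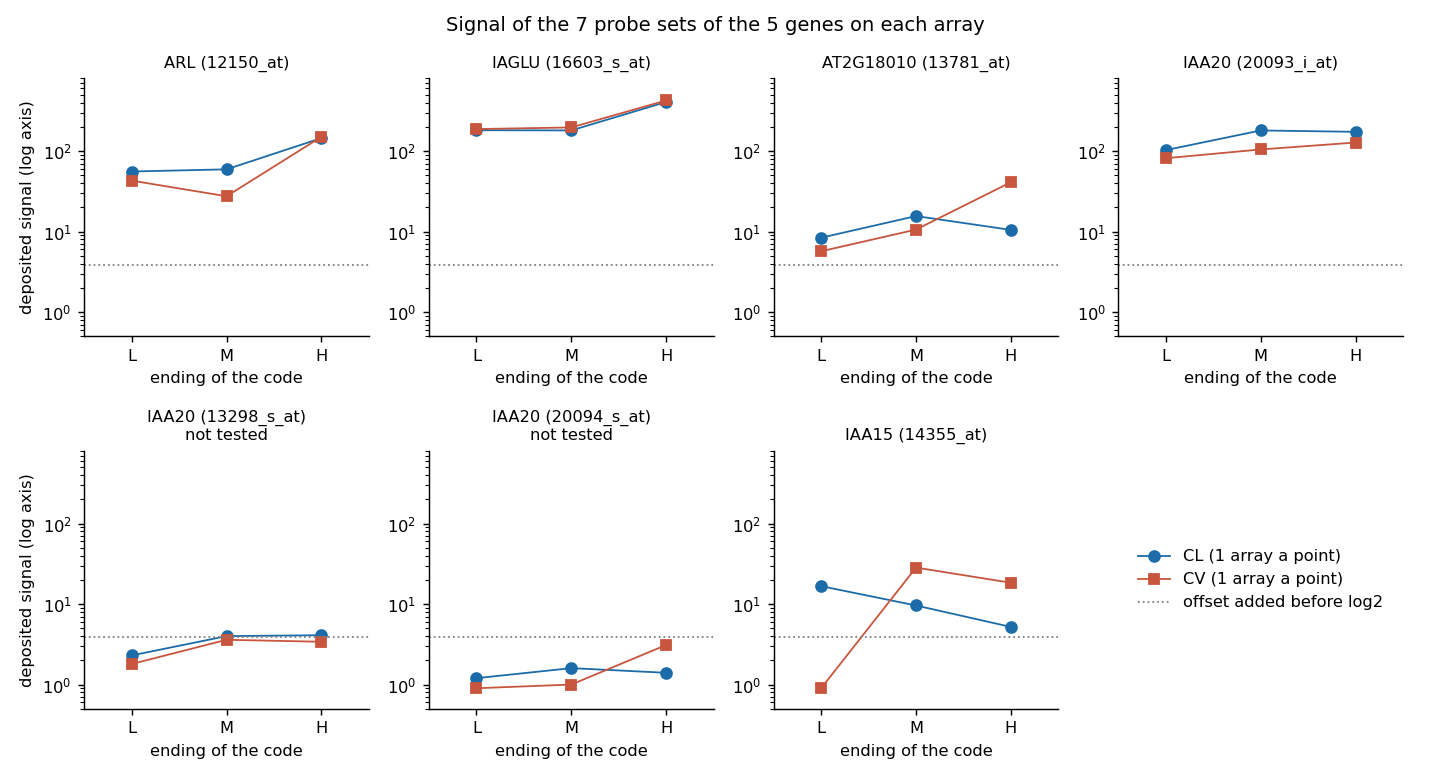
Deposited signal (log axis) of the 7 probe sets of the 5 genes against the ending of the code, with CL as circles and CV as squares, 1 array a point and no replicates. ARL and IAGLU are highest at H in both starts, and AT2G18010 is highest in CVH. IAA15 changes from L in opposite directions in CL and CV and is lower at H than at M in both. The 2 untested IAA20 probe sets lie near or below the offset of 3.9 (dotted line).

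AT2G18010, also named SAUR10 and a member of the small auxin-up RNA family, was high on a single array. Its signal in CL was 8.40 for L, 15.6 for M and 10.5 for H, and in CV 5.70 for L, 10.6 for M and 41.1 for H. CVH stood above the other 5 arrays, while CLH was below CLM and just below CVM, so the H arrays overlapped with the M arrays. The H signal was 7.21 times that of L in CV and 1.25 times in CL. From L to M the ratio was 1.86 in both starts, from signals in the lower part of the array (percentiles 26.0 and 28.3 at L). The fitted change of H from L was 1.23 (SE 0.60); it was 2.25 without CLH and 0.21 without CVH, so its size rests on CVH. With 1 array per code, this signal of CVH has no replicate against which it could be checked.

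IAA20 (AT2G46990) encodes an Aux/IAA protein that lacks the conserved degron through which auxin triggers breakdown of this family, and it is measured by 3 probe sets that differ in level. The bright probe set gave 103.0 at L, 180.7 at M and 173.6 at H in the start CL. In the start CV it gave 81.6 at L, 104.9 at M and 127.9 at H. L was the lowest ending in both starts, and M and H changed places between them. The ratio of H to L was 1.69 in CL and 1.57 in CV, and that of M to L 1.75 in CL and 1.29 in CV. The fitted change of H from L was 0.68 (SE 0.30) and that of H from M 0.11 (SE 0.30), the latter smaller than the per-array spread of 0.30.

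The other IAA20 probe sets were dim. The signals of one lay between 1.80 and 4.1 and those of the other between 0.90 and 3.10, and both had means below the filter. At or below the offset of 3.9 were 4 of the 6 signals of the former and all 6 of the latter. L was the lowest ending in both starts for the former too, with 2.3 in CLL and 1.80 in CVL, but at such signals these differences have no reliable size. The bright probe set carries the suffix _i, which marks a reduced set of probes, and the dim ones the suffix _s. The values given here for IAA20 therefore rest on 1 of its 3 probe sets.

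IAA15 (AT1G80390), another Aux/IAA repressor gene, had changes from L of opposite sign in the 2 starts. Its signal in CL was 16.7 for L, 9.60 for M and 5.2 for H, and in CV 0.90 for L, 28.4 for M and 18.4 for H. In CL it was lower at each following ending, whereas in CV it was below the offset at L and at its highest at M. From M to H it was lower in both starts, by -0.57 in CL and -0.53 in CV on the log2 scale. On the log2 scale the differences from L were -0.61 at M and -1.18 at H in CL, and 2.75 and 2.22 in CV. Their size in CV depends on the offset, because the CVL signal stood at percentile 5.25 of that array: with an offset of 16 they were 1.39 and 1.02. The fit across both starts, which averages these directions, gave 0.52 (SE 0.84) for H against L and 1.07 (SE 0.84) for M against L.

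**Figure D2:**
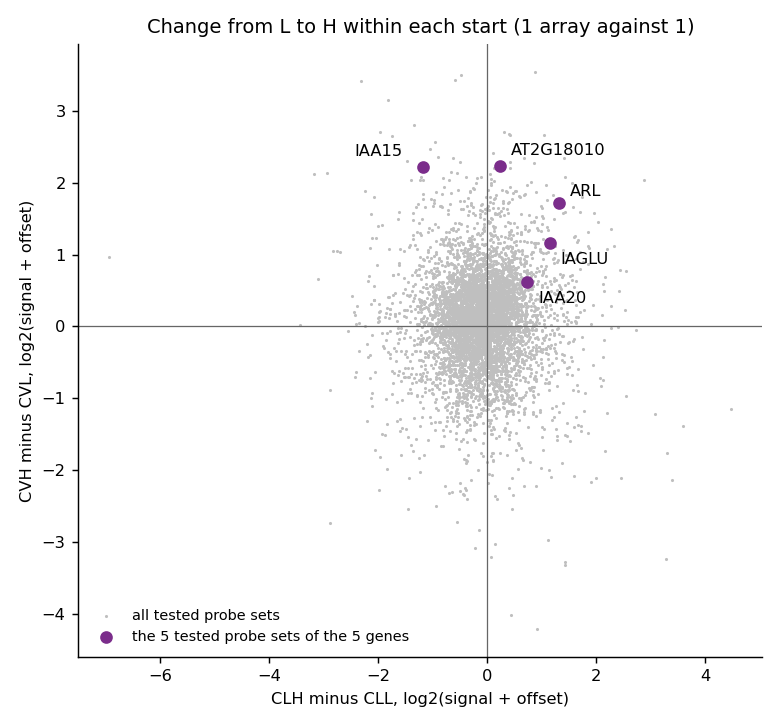
Change from L to H on the scale of log2(signal + 3.9) in CL (x axis) and in CV (y axis) for all 5773 tested probe sets (grey) and the 5 tested probe sets of the 5 genes (purple), each the difference of 1 array from 1 other. ARL (1.32, 1.72), IAGLU (1.15, 1.17) and IAA20 (0.73, 0.62) have similar values in CL and CV, AT2G18010 (0.23, 2.23) has the larger one in CV, and IAA15 (-1.18, 2.22) lies in the quadrant of opposite signs.

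Among all tested probe sets, 25.7% were higher at H than at L in both starts, and 0.797% (46 probe sets) by at least 1 on the log2 scale in both. ARL, IAGLU, AT2G18010 and IAA20 were in the first group, and ARL and IAGLU in the second, by the contrast on which they were chosen. The difference between the starts in the change from L to H was 0.40 for ARL, 0.02 for IAGLU, -0.11 for IAA20, 2.00 for AT2G18010 and 3.39 for IAA15 (CV minus CL). Each is a difference among 4 single arrays and could not be tested.

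Across the 6 arrays the 5 genes did not share a single profile. Pearson's r of the log2 values was 0.89 between ARL and IAGLU, with Spearman's rho of 0.43, because the 2 high arrays set r while the 4 others were ordered differently. It was 0.61 between ARL and AT2G18010, 0.62 between IAGLU and AT2G18010, 0.57 between ARL and IAA20, and between -0.12 and 0.47 for IAA15 with the other 4. These values describe 6 arrays that share the same 2 starts and 3 endings.

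The genes with the most similar profile were taken from up to 670 named genes with an SD of at least 0.5 on the log2 scale. For ARL they were AT1G54070 (r = 0.96), the carboxypeptidase-like gene scpl28 (r = 0.95) and AT4G22820 (r = 0.95), and 9 genes (1.35%) reached r = 0.9. AT4G22820 had signals of 257.7 in CLH and 319.4 in CVH, and between 113.8 and 175.0 on the other 4 arrays. AT1G54070 was dimmer, with 24.1 in CLH and 31.3 in CVH. On the other 4 arrays it was between 3.3 and 8.2, where the offset weighs on the value. For IAGLU they were AT4G26095 (r = 0.95), AT2G31130 (r = 0.95) and AT1G54070 (r = 0.95), with Spearman's rho of 0.60, 0.94 and 0.49. AT4G26095 and AT1G54070 are also among the probe sets with a gap of at least 1 at H. Their likeness to ARL or IAGLU therefore restates the contrast on which these 2 members were chosen.

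AT2G18010 was nearest to SAG29, a senescence-associated sugar transporter gene (r = 0.96), whose signal was 118.9 in CVH and between 15.0 and 46.2 on the other arrays. AT1G62510 (r = 0.92) and AT4G08570 (r = 0.90) followed. The signal of AT4G08570 was 52.9 in CVH and between 1.1 and 6.3 on the other arrays, so CVH sets its r (Spearman's rho 0.49). IAA20 was nearest to the glucosyltransferase gene UGT73C1 (r = 0.96), followed by AT4G34560 (r = 0.93) and AT3G52480 (r = 0.91). IAA15 was nearest to AT4G26950 (r = 0.99), which had the same order of the 6 arrays, with 1.40 in CVL and 20.9 in CVM. AT2G21640 (r = 0.94) and AT3G48230 (r = 0.89) came next, and both were also at or below 1.90 in CVL, where the offset weighs on the value.

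The comparison of CV with CL asks whether the level of a gene differs between the starts across the endings. IAA20 was the only member lower in CV than in CL at all 3 endings, with ratios of 0.792 at L, 0.581 at M and 0.737 at H. Its mean signal was 105 ± 23.2 in CV and 152 ± 43.0 in CL (SD over 3 arrays of different endings). The fitted difference was -0.50 (SE 0.24), with an unadjusted p of 0.0697 and a Benjamini-Hochberg adjusted p of 0.424 by limma, so it did not pass the test. In 21.9% of all tested probe sets CV was below CL at all 3 endings.

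ARL was lower in CV at L and M (ratios 0.771 and 0.463) and level at H (1.04), with a fitted difference of -0.44 (SE 0.28, adjusted p = 0.544). IAGLU differed by 0.08 (SE 0.23, adjusted p = 0.92), the smallest difference of the 5. AT2G18010 was lower in CV at L and M (ratios 0.679 and 0.68) and higher at H (3.91), with a fitted difference of 0.29 (SE 0.49, adjusted p = 0.843). IAA15 was lower at L (0.0539) and higher at M and H (2.96 and 3.54), with 0.15 (SE 0.69, adjusted p = 0.957).

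None of the 5 genes passed the test of CV against CL, for which limma called 2 of 5773 probe sets (0.0346%). Before adjustment, 748 probe sets (13%) had a p under 0.05, and none of the 5 genes did. With 2 residual degrees of freedom, a p above the threshold does not show that CV and CL are alike in these genes. The median difference of all tested probe sets was -0.10, and it was -0.01 after quantile normalization and 0.04 with arrays centred on their medians, so that differences of CV from CL are to be read against that shift. Of the probe sets at an unadjusted p under 0.05, 42.9% were higher in CV as deposited, 53.5% after quantile normalization and 66.6% with arrays centred on their medians. The difference of IAA20 was between -0.51 and -0.36, and that of ARL between -0.46 and -0.29, over the alternatives with all 6 arrays.

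**Figure D3:**
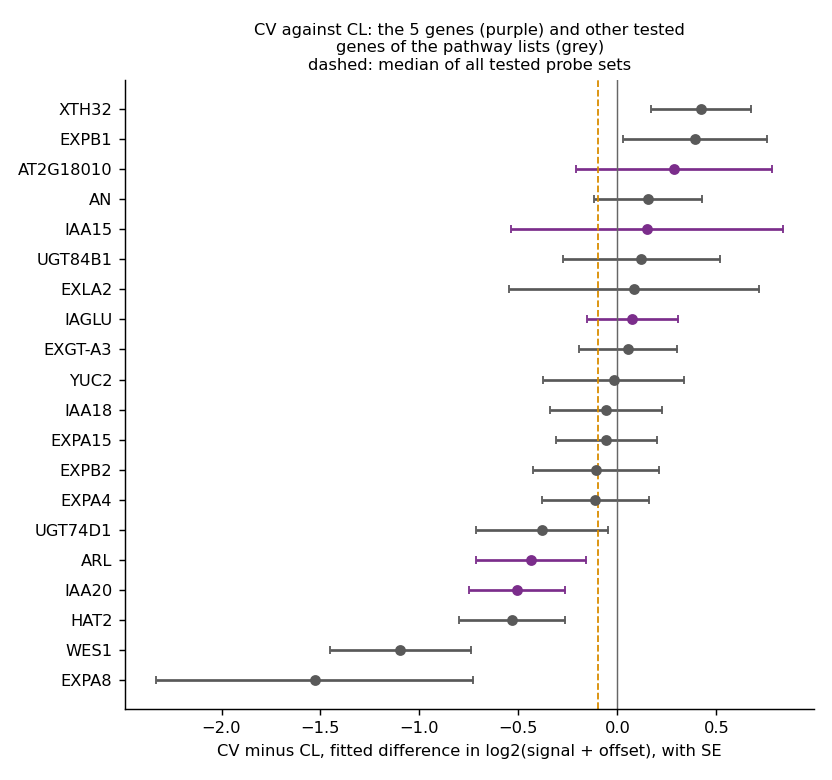
Fitted difference of CV from CL on the log2 scale, with its SE (bars), for the 5 genes (purple) and the 15 other tested genes of the pathway lists (grey), with the median of all tested probe sets as a dashed line. IAA20 and ARL lie below the median of -0.10 and AT2G18010, IAA15 and IAGLU above it, and the largest differences are those of EXPA8 and WES1.

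The other genes of auxin response were few on this array under a name. No auxin receptor, response factor or transport gene was measured here by a named probe set. Leaving out the 5 members, the auxin and organ growth lists held 10 genes, of which 6 were tested. In H against L, 1 of the 6 was higher and 5 lower (median -0.24, against -0.01 for all tested probe sets), and none had an unadjusted p under 0.05. The 5 include IAA18 at -0.01, and 49.2% of all tested probe sets were higher at H than at L. In CV against CL 2 were higher and 4 lower (median -0.04). Of all tested probe sets 40.5% were higher in CV, with a median of -0.10. WES1 alone of the 6 had an unadjusted p under 0.05, as did 13% of all tested probe sets.

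WES1 encodes a GH3 enzyme that attaches amino acids to auxin. Its signal in CL was 19.2 for L, 31.5 for M and 23.3 for H, and in CV 7.40 for L, 7.80 for M and 13.3 for H. All 3 CV arrays were below all 3 CL arrays, as in 12.2% of the tested probe sets. The fitted difference was -1.10 (SE 0.36), with an unadjusted p of 0.0145 and an adjusted p of 0.272 by limma, which did not pass. The difference was between -1.25 and -0.67 over the alternatives with all 6 arrays.

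HAT2, an auxin-induced homeodomain gene of the shade response list, had signals of 55.6 at L, 71.1 at M and 54.1 at H in CL. The CV signals were 39.6 for L, 32.3 for M and 50.4 for H. All 3 CV signals were again below the CL signals, as in 12.2% of the tested probe sets, and at H by only 0.10 on the log2 scale. The fitted difference was -0.53 (SE 0.27, adjusted p = 0.443 by limma). IAA18, the remaining Aux/IAA gene, had opposite directions in the starts: its signal was 54.9 in CLL and 37.3 in CLH (-0.51 on the log2 scale), and 40.4 in CVL and 58.7 in CVH (0.50). The fitted change of H from L (-0.01, SE 0.35) averages these, and that of CV from CL was -0.06 (SE 0.28).

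Of the enzymes that make or conjugate auxin, YUC2, a flavin monooxygenase of auxin synthesis, and the glucosyltransferases UGT74D1 and UGT84B1 were tested beside IAGLU. Their fitted changes of H from L were -0.36 for YUC2, -0.66 for UGT74D1 and -0.54 for UGT84B1, against 1.16 for IAGLU. With 1 array left out these values ranged from -0.61 to -0.12 for YUC2, from -1.28 to -0.04 for UGT74D1 and from -1.14 to 0.07 for UGT84B1. UGT84B1 was lower at H in CL (24.6 in CLL, 7.90 in CLH) and near level in CV (13.8 in CVL, 16.4 in CVH). UGT74D1 was lower at H in CV (39.6 in CVL, 15.0 in CVH) and near level in CL (27.9 and 25.4). Whether IAGLU differs from these 3 genes was not tested, and IAGLU was chosen for its change at H.

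AN, a gene of leaf cell shape, was the only organ growth gene measured beside ARL, with signals between 23.5 and 34.5 and a fitted change of H from L of -0.12. Of the expansins and xyloglucan transferases, enzymes and proteins of wall loosening, 8 of 13 were tested. At H, 3 had a higher and 5 a lower fitted level than at L (median -0.15), where 49.2% of all tested probe sets were higher. The largest changes were those of EXPA8 (-0.93, SE 0.98), XTH32 (-0.76, SE 0.31) and EXGT-A3 (-0.58, SE 0.30). EXPA8 also had the largest difference of CV from CL in these lists (-1.53, SE 0.80), which did not have 1 direction: CV was above CL at L (513.9 against 168.5) and below it at M (67.7 against 596.4) and H (49.6 against 457.3). Of the 15 tested pathway genes that are not members, XTH32 was the only one with an unadjusted p under 0.05 in H against L (0.0381), where 6.05% of all tested probe sets had one. That p was between 0.0273 and 0.287 with 1 array left out.

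None of the 15 tested pathway genes other than the members passed limma's test in any comparison on all 6 arrays. It called 0 of 5773 probe sets (0%) in H against L, H against M and M against L, with 349, 256 (4.43%) and 74 (1.28%) at an unadjusted p under 0.05. Of those at that p, 57.4% were higher at H than at M as deposited and 34.1% with arrays centred on their medians, and 43.2% and 73.6% were higher at M than at L. Leaving out 1 array changed these counts, which were 64 without CLL and 54 without CVL for H against L. EXPA8 alone of the pathway genes then passed, in H against L as well as in CV against CL. Its change of H from L ranged from -3.26 to 1.41 with 1 array left out, so its sign depended on the array dropped. Without CLL or CVL its difference of CV from CL was -3.09. That fit has 1 residual degree of freedom, from the near-equal differences at M (-3.07) and H (-3.11), while the remaining L array has no counterpart and is assumed to vary like the others. The call in CV against CL therefore follows from leaving out the ending with the opposite direction.

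**Figure D4:**
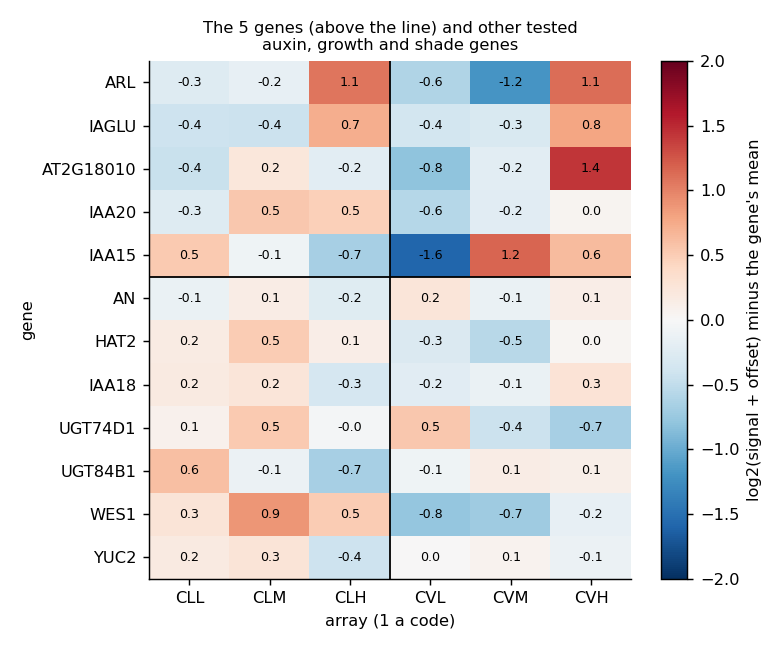
Log2(signal + 3.9) minus the mean of each gene over the 6 arrays, printed in each cell, for the 5 genes (above the horizontal line) and the 7 other tested auxin, growth and shade genes, with 1 array a column. High values at H in both starts appear in ARL and IAGLU. In WES1 and HAT2 every CL value is above every CV value, in HAT2 only narrowly at H. IAA18 is lower at H than at L in CL and higher in CV.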

How the data were processed

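Biotin-labelled cRNA was hybridised to single-channel Affymetrix arrays, per the labels' protocols. The authors deposited intensity values on a linear scale, 1 per probe set and array; their 2% trimmed mean is the same on every array. Which software made them is not stated per the labels' protocols. Gene names come from GEO's annotation of the platform, with symbols brought up to date from the TAIR10.1 gene table (3794 probe sets with 1 gene, 70 with several, 4383 unnamed).

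Values were analysed as log2(value + 3.9). The 50 control probe sets and the 30% of the others with the lowest means (2474) were left out. An additive model of start and ending was fitted across 5773 probe sets with limma 3.58.1 in R 4.3.3 (functions lmFit and eBayes, trend on mean intensity; 2 residual degrees of freedom). A probe set was called where its p after Benjamini-Hochberg adjustment was under 0.05. The script was tested on simulated data. The p-values reflect only how these arrays scatter, which may be technical and includes any way in which the endings act differently in CL and CV. The number of arrays limits the precision.

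The members and the 11 gene lists were chosen with earlier results of these data known. The genes named are the members, every measured Aux/IAA, SAUR and GH3 gene, up to 3 of each other list with the largest change, and for each member the 3 genes with the highest correlation; leaf markers, genes at H with a gap of 1, and genes with opposite signs in the starts (EXPB1, EXLA2, EXPB2) are named beyond that rule, the last chosen after their values were seen. List genes were counted by their brightest probe set; the other EXPB1 probe set had an unadjusted p of 0.0498 in CV against CL (adjusted p = 0.385). Alternatives were other offsets, filters and scalings, no trend, no block, and each array left out.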

Additional observations from a re-analysis of the deposited data

Results flagged for a closer look

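IAA15 had changes from L of opposite sign in the 2 starts. From L to M its change in CV exceeded that in CL by 3.36 on the log2 scale (2.75 in CV, -0.61 in CL), and from L to H by 3.39 (2.22 in CV, -1.18 in CL). Both differences share the L arrays and rest on the CVL signal of 0.90, and neither was tested.

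GH3.1, a gene of auxin conjugation, was lower at H than at L in CL (12.0 in CLL, 1.30 in CLH) and higher in CV (7.30 in CVL, 13.2 in CVH), a difference between the starts of 2.22 on the log2 scale that was not tested. Its mean was below the filter.

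Of the wall-loosening genes, 4 had changes from L of opposite sign in CL and CV. EXPA8 was higher at M and H than at L in CL (1.80 and 1.42 on the log2 scale) and lower in CV (-2.85 and -3.27), so that CV less CL was -4.65 for M and -4.69 for H. For the change from L to H, CV less CL was -1.82 for EXPB1, 2.59 for EXLA2 and 1.38 for EXPB2. The EXLA2 signal was 15.0 in CLL and 3.4 in CLH, the latter below the offset, and 7.5 in CVL and 22.7 in CVH. The size of its difference is therefore not reliable. The value of EXPB1 is that of the brighter of its 2 probe sets (0.68 in CL, -1.14 in CV); the dimmer one had 0.35 in CL and -1.04 in CV. These differences were not tested, and all genes here were listed where both changes reached 0.5 on that scale.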

How the results depend on the processing

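The calls of CV against CL (2 probe sets) fell to 0 with arrays centred on their medians, with no trend on intensity, and with no block, and ranged from 1 to 257 with 1 array left out (251 when CLL was dropped, 257 for CVL, 55 for CLH, 57 for CVH, 1 each for CLM and CVM). With 1 array left out, the counts ranged from 0 to 64 for H against L, from 0 to 10 for H against M and from 0 to 38 for M against L, each with 1 residual degree of freedom; other alternatives left these 3 at 0. No member passed the test of CV against CL in any alternative. Its direction, with ranges of -0.39 to 0.64 for AT2G18010 and -0.42 to 1.28 for IAA15, reversed for AT2G18010 without CLH or CVH (-0.39 each) and for IAA15 without CLM or CVM (-0.40 each) or without CLH or CVH (-0.42 each). AT2G18010 and IAA15 gave no value with the lowest 50% left out. The change of H from L was between 1.15 and 1.89 for ARL, 1.13 and 1.18 for IAGLU and 0.54 and 0.81 for IAA20 with 1 array left out, and between -1.17 and 2.21 for IAA15; the cause was not tested. Differences near the offset of 3.9 have no reliable size. No paired analysis was possible because each code had 1 array, so that its replicate number paired nothing; the additive fit compares CV with CL within each ending, and the fit with no block drops that.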

Other observations

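Several genes of the lists had means below the filter and were not tested. GH3.3 was between 5.50 and 16.4 in CL and at 1.70, 3.30 and 5.00 in CVL, CVM and CVH, lower in CV at each ending. The other dim GH3 genes did not share that direction: GH3.9 was higher in CV than in CL at L (6.4 against 1.2) and H (9.10 against 1.40) and level at M (6.20 against 6.30), and GH3.1 was higher in CV at M (3.30 against 2.20) and H (13.2 against 1.30) and lower at L (7.30 against 12.0). AT4G34800, also named SAUR4, was between 2.60 and 11.8, with its lowest signal in CVH, where AT2G18010 had its highest. BRL1, a brassinosteroid receptor gene, was in CL at 15.6 for L, 8.20 for M and 10.3 for H, and in CV at 2.00 for L, 1.30 for M and 14.3 for H, so that its highest signal was in CLL. At or below the offset of 3.9 were 3 of the 6 signals of GH3.1. For GH3.3, GH3.9, AT4G34800 and BRL1 there were 2 of 6 each. Differences that include such signals have no reliable size.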
